A study of Mus musculus with 12 samples.

Results

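The Krüppel-like factors (KLFs) described here are 10 mouse genes, Klf2, Klf3, Klf4, Klf5, Klf6, Klf9, Klf10, Klf11, Klf13 and Klf15, chosen by symbol. Each was read by 1 probe set that the platform table pairs with that symbol alone, so 10 of the 21789 probe sets tested, which stand for 19938 genes, belong to them. The arrays measured primary murine hepatocytes (mouse HPC), the parenchymal cells of the liver, isolated with collagenase from male C57BL/6 mice and kept on collagen in serum-free HepatoZYME-SFM. The groups were cells given recombinant human TGF-β1 at 1 ng/ml for 20 min, 2 h or 4 h, against untreated control cells, with 3 arrays each. All cells, controls included, had 24 h of culture after a change of medium and another change 1 h before stimulation. No untreated cells matched to each later time are among the 12 arrays, so time since the last change of medium cannot be told apart from treatment. The study calls the replicates biological, and whether each came from a separate animal is not given in the sources used here. Values are log2 signals, on which a difference of 1 is a doubling.

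KLFs are transcription factors that bind GC-rich and CACCC sequences through a conserved set of C2H2 zinc fingers at the end of the protein. They belong to one family with the SP factors, and members differ mainly in the region outside the fingers, which recruits coactivators or corepressors. Klf10 and Klf11 are also known as TGF-β inducible early genes, named for a fast rise of their transcripts in other cells given TGF-β. Other members have roles in liver biology: Klf15 promotes amino acid breakdown and gluconeogenesis, Klf9 is induced by glucocorticoid and thyroid hormones, and Klf6 was found in activated stellate cells.

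The stretch before the gene start is shown for the 2 members that changed, Klf4 and Klf9, and for Klf11, the 1 of the early genes with a promoter in the RefSeq table. Each line holds the 250 bases upstream of the annotated start, 5′ to 3′ on the gene's strand (RefSeq, GRCm38.p6), with every match to a GC box, a CACCC box or a SMAD element in capitals. They are chr4:55532476-55532725 on the minus strand for Klf4, chr19:23140976-23141225 on the plus strand for Klf9 and chr12:24651121-24651370 on the plus strand for Klf11.
Klf4: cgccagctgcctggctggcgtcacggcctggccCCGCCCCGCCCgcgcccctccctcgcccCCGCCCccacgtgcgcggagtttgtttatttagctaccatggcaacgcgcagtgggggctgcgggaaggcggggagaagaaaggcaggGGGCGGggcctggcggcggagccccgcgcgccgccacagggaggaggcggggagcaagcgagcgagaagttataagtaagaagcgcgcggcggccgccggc
Klf9: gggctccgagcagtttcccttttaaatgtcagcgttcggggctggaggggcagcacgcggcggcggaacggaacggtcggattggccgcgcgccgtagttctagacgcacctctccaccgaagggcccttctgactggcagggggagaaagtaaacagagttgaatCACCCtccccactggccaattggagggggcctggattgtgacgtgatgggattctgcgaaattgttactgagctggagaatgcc
Klf11: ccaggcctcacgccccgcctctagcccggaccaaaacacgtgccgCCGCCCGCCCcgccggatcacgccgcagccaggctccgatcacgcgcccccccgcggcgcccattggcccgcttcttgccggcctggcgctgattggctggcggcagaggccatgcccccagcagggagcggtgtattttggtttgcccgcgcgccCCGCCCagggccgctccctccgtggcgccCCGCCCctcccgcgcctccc

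The letters searched, on both strands, were GGGCGG for the GC box, CACCC for the CACCC box and CAGAC for the SMAD element. Klf4 and Klf11 each held 4 GC boxes, the first pair of each partly overlapping, and no match to the other motifs. Klf9 held no GC box and 1 CACCC box. Of the 8 members with a promoter in the table, 7 held a GC box, 5 a CACCC box and 2, Klf3 and Klf15, a SMAD element. The window of Klf15, chr6:90462326-90462575, lies inside the span given for that gene, 90461043 to 90491803, rather than before its start. Among all 32851 windows of 250 bases in the table, 32.7% held a GC box, 52% a CACCC box and 42.2% a SMAD element. A match describes the letters of this window only.

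After 4 h of TGF-β1, 2 of the 10 KLF genes differed from untreated cells. Klf4 rose 1.43-fold and Klf9 fell to 0.748 of its untreated level, while the other 8, Klf10 and Klf11 among them, did not pass the test. Calls are at an adjusted p under 0.05 (limma, Benjamini-Hochberg over all 21789 probe sets), and 4.59% of all probe sets were called in this comparison (1.57% higher and 3.02% lower). The median change of the 10 genes was -0.11 on the log2 scale, against 0.02 over all tested probe sets, with 3 of 10 above 0 and 7 below. At 20 min and at 2 h limma called 0 of the 10, where it called 0% of all probe sets as well. At an unadjusted p under 0.05 there were 2 of 10 at 20 min (Klf5 and Klf9), 0 at 2 h and 4 at 4 h (Klf3, Klf4, Klf9 and Klf15), beside 8.46%, 6.28% and 17% of all probe sets.

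**Figure D1:**
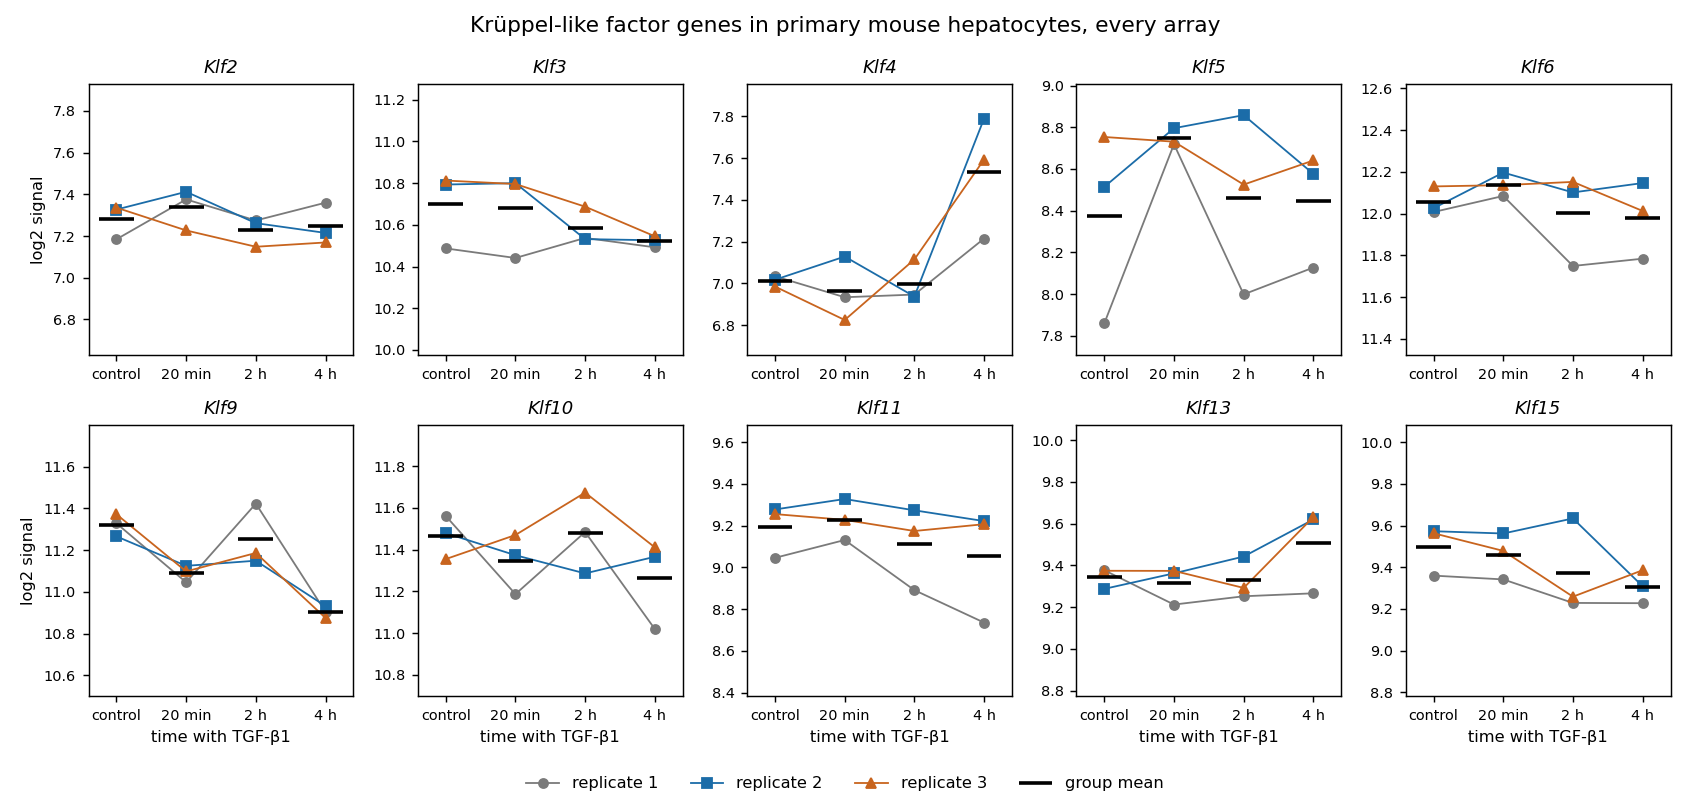
Log2 signal (y axis, the same span of 1.3 in each panel) of the 10 KLF genes on each of the 12 arrays, by time with TGF-β1 (x axis). Circles, squares and triangles joined by lines are replicates 1, 2 and 3, and black bars are group means; the 4 h values lie above all control values for Klf4 and below them for Klf9.

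Klf4 encodes a factor known for epithelial differentiation and for its use in reprogramming cells to pluripotency. Its log2 signals at 4 h were 7.21, 7.79 and 7.59 in replicates 1, 2 and 3, against 7.03, 7.02 and 6.98 in untreated cells. The untreated signals were close to the array medians of 6.82 to 6.93, and the gene was not tested among the brighter probe sets. All 3 values at 4 h lay above all 3 untreated values, and replicate 1 showed the smallest step. The change was 0.52 ± 0.11 (standard error, 95% interval 0.27 to 0.77, limma adjusted p = 0.0245), higher in 3 of 3 replicates. In GRCm38.p6 the gene spans 55527137 to 55532475 on chromosome 4.

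No earlier change of Klf4 was called. At 20 min its signals were 6.93, 7.13 and 6.82, and at 2 h 6.95, 6.94 and 7.11, both overlapping the untreated values. The log2 change was -0.05 ± 0.11 at 20 min and -0.01 ± 0.11 at 2 h (standard errors). The 4 h values also lay above all those at 2 h, with a difference of 0.53 ± 0.11 (limma, adjusted p = 0.1, where 0.078% of all probe sets were called), and above all those at 20 min, by 0.57 ± 0.11 (limma, adjusted p = 0.0514, where 0.62% were called). Neither of these differences passed.

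The rise of Klf4 at 4 h lost its call when replicate 2 (0.39, limma adjusted p = 0.179) or replicate 3 (0.48, 0.237) was omitted, and reached 0.69 without replicate 1. The same held without the control or 4 h array of replicate 2 (limma, adjusted p = 0.105 and 0.122) or of replicate 3 (0.0888 and 0.115), for a fit without the replicate block (0.281), with the block as a random effect (0.0625), in a fit of the 2 groups alone (0.0852) and with all 35556 probe sets tested (0.0861).

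Klf9, also called BTEB1, is a small factor induced by glucocorticoid and thyroid hormones. At 4 h its log2 signals were 10.90, 10.93 and 10.88, against 11.33, 11.27 and 11.37 in untreated cells. The 2 groups did not overlap, and the spread at 4 h was narrow (SD 0.03, n = 3, against 0.05 in untreated cells). The change was -0.42 ± 0.07 (standard error, 95% interval -0.58 to -0.26, limma adjusted p = 0.0108), lower in 3 of 3 replicates. Klf9 was also the 1 member past the moderated F test over the whole time course (limma, adjusted p = 0.0466, with 1.4% of all probe sets called), with Klf4 at 0.0567. The gene spans 23141226 to 23168129 on chromosome 19. This time course call was lost when any whole replicate was left out and, of single arrays, was kept only on omission of replicate 1 at 20 min or of replicate 1 or 2 at 2 h.

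The course of Klf9 was not an even decline. At 20 min its signals of 11.05, 11.13 and 11.10 lay below all untreated values, with a change of -0.23 ± 0.07 that fell short of a call (limma, adjusted p = 0.448). At 2 h the signals were 11.42, 11.15 and 11.19 and overlapped the untreated ones, replicate 1 being the highest of all 12 arrays, with a change of -0.07 ± 0.07. The difference between 4 h and 2 h, -0.35 ± 0.07, did not pass (limma, adjusted p = 0.103).

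Between the treated times limma called 0 of the 10 KLF genes. Of all probe sets, 0.436% were called higher and 0.184% lower at 4 h against 20 min, 0.0505% higher and 0.0275% lower at 4 h against 2 h, and 0% at 2 h against 20 min. At an unadjusted p under 0.05 there were 4 of the 10 at 4 h against 20 min (Klf4, Klf9, Klf11 and Klf13, beside 9.78% of all probe sets), 2 at 4 h against 2 h (Klf4 and Klf9, beside 8.83%) and 1 at 2 h against 20 min (Klf9, beside 5.11%).

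Across settings the size of the Klf9 change at 4 h moved little, between -0.46 and -0.38, but the call went when replicate 2 (limma, adjusted p = 0.0801), replicate 3 (0.199) or the replicate block (0.0759) was left out. Leaving out the control array of replicate 3 (limma, adjusted p = 0.0519) or the 4 h array of replicate 3 (0.059) lost it too.

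**Figure D2:**
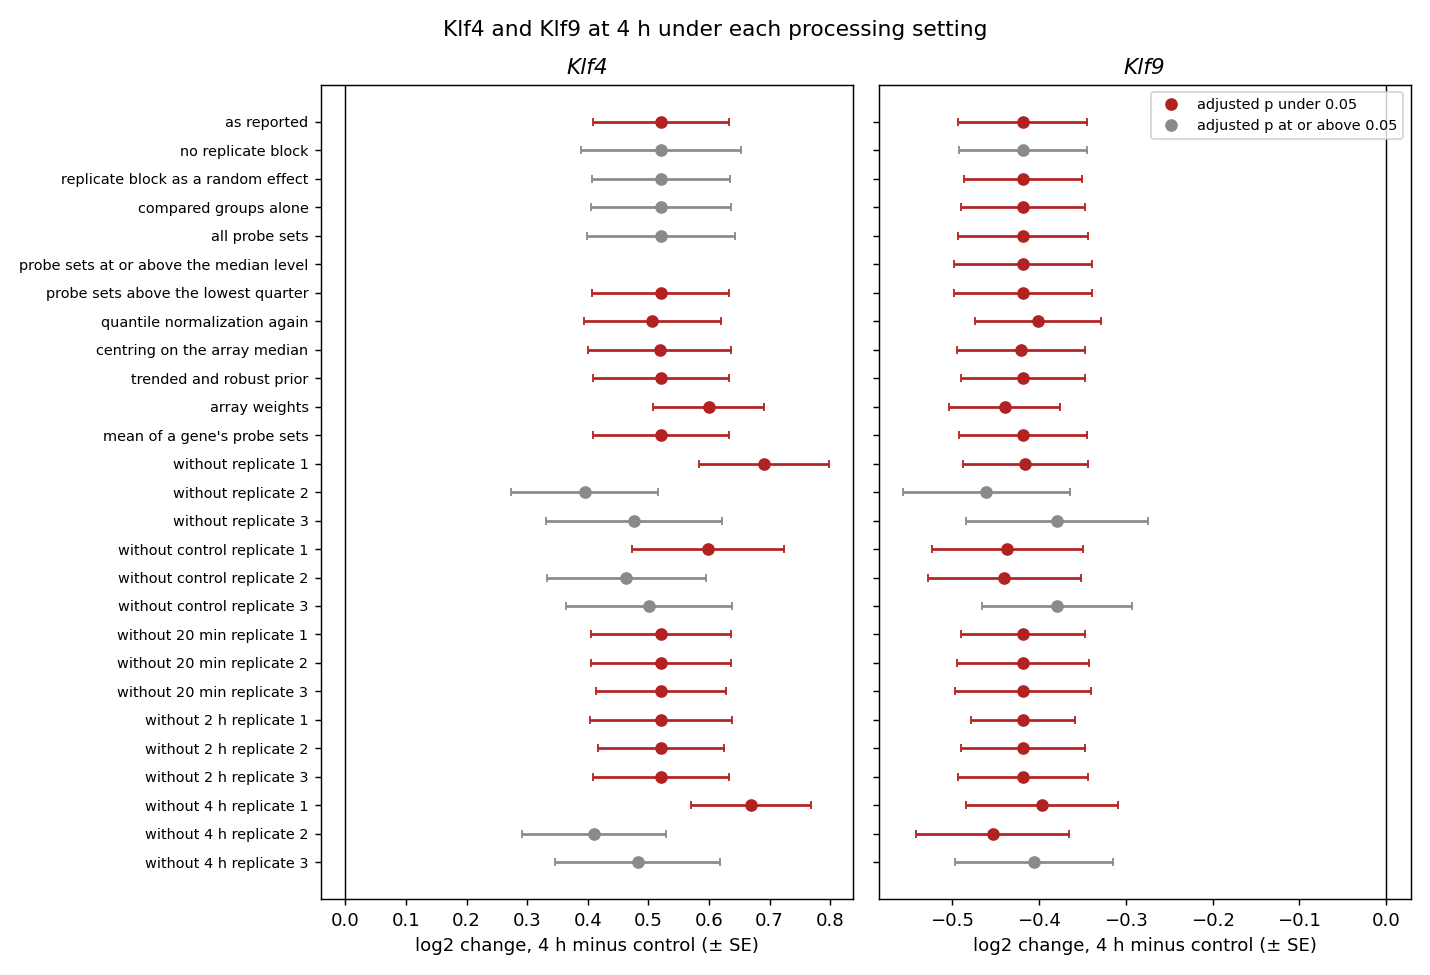
Log2 change at 4 h minus control (x axis) of Klf4 and Klf9 under each processing setting (y axis); points are limma estimates with standard errors, red at an adjusted p under 0.05 and grey otherwise. All points lie above 0 for Klf4 and below 0 for Klf9, and Klf4 has none in the row of brighter probe sets, where its probe set was filtered out.

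The early genes Klf10 (TIEG1) and Klf11 (TIEG2), which repress transcription through the SIN3A corepressor, were called at no time measured. Klf10 had log2 signals of 11.56, 11.48 and 11.35 in untreated cells, 11.19, 11.37 and 11.47 at 20 min, 11.48, 11.29 and 11.67 at 2 h and 11.02, 11.37 and 11.41 at 4 h. The replicates went different ways, and all groups overlapped. Its change was -0.12 ± 0.11 at 20 min, 0.02 ± 0.11 at 2 h and -0.20 ± 0.11 at 4 h (standard errors; limma, adjusted p = 0.795, 0.999 and 0.424). The 95% intervals ended at 0.13, 0.27 and 0.05, so a larger rise than these lay outside them.

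Klf11 showed signals of 9.05, 9.28 and 9.26 in untreated cells, 9.13, 9.33 and 9.23 at 20 min, 8.89, 9.27 and 9.17 at 2 h and 8.74, 9.22 and 9.21 at 4 h. Replicate 1 was the lowest at each time, and the groups overlapped. The change was 0.04 ± 0.07, -0.08 ± 0.07 and -0.14 ± 0.07 in order of time (limma, adjusted p = 0.915, 0.975 and 0.382), with upper ends of the 95% interval at 0.20, 0.08 and 0.02. A time point of 1 h is not analysed here.

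For a view of TGF-β signaling on the same arrays, SMAD target and feedback genes were examined. Of 14 measured, limma called 6 higher at 4 h, 0 lower and 8 in neither direction, beside 1.57% and 3.02% of all probe sets. The median change was 0.33, against 0.02 over all tested probe sets. Of the 14 changes 13 were above 0 and 1, that of Id2, was below. Id2 stood at -0.41 ± 0.12 and was not called (limma, adjusted p = 0.0863). The inhibitory Smad7 was not called either, with a mean log2 signal of 8.94 at 4 h, against 7.83 in untreated cells. Its values at 4 h lay above all untreated ones. The SMAD-binding Pmepa1 stood at 2.78 ± 0.23, the matricellular Ccn2 at 1.96 ± 0.21, the inhibitory Smad6 at 0.59 ± 0.08 and the corepressor Ski at 0.43 ± 0.07 (standard errors; limma, adjusted p = 6.85e-04, 0.00143, 0.00391 and 0.00572).

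**Figure D3:**
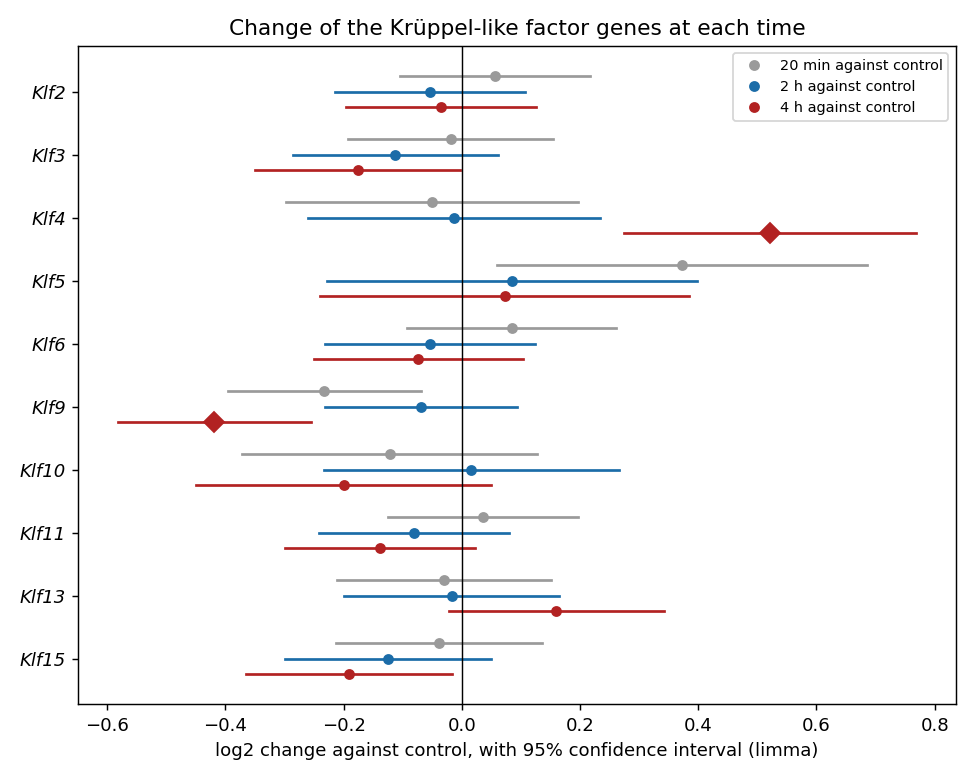
Log2 change against control (x axis) of the 10 KLF genes (y axis) at 20 min, 2 h and 4 h, with 95% confidence intervals from limma; diamonds mark an adjusted p under 0.05 and circles the rest. The 2 diamonds are Klf4 at 0.52 and Klf9 at -0.42, both at 4 h, and the intervals of Klf10 and Klf11 cross 0 at each time.

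Klf15, the factor of amino acid breakdown, had log2 signals of 9.23, 9.31 and 9.39 at 4 h, against 9.36, 9.57 and 9.56 in untreated cells. The groups overlapped only through replicate 1 of the untreated cells. The change of -0.19 ± 0.08 (95% interval -0.37 to -0.02) was negative in 3 of 3 replicates and not called (limma, adjusted p = 0.24).

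Klf15 is linked in mouse liver to genes of amino acid breakdown and gluconeogenesis. Of 13 measured, 7 fell at 4 h, 0 rose and 6 were not called by limma (beside 3.02% and 1.57% of all probe sets), with a median change of -0.31, against 0.02 over all tested probe sets. The tryptophan dioxygenase Tdo2 fell by 0.53 ± 0.10, and the branched-chain ketoacid dehydrogenase subunits Bckdha and Bckdhb stood at -0.45 ± 0.09 and -0.39 ± 0.08 (limma, adjusted p = 0.0124, 0.0175 and 0.0151). Hpd, an enzyme of tyrosine breakdown, stood at -0.38 ± 0.07 (limma, adjusted p = 0.0169). Replicates differed widely in level for Tdo2 (SD 0.82 in untreated cells, 0.96 at 4 h) and Bckdha (0.50 and 0.37). For both genes the groups overlapped, as they did for Hpd (SD 0.41 and 0.48), Gpt and Got1. Those of Tat and Bckdhb did not overlap. Fits without the replicate block were not examined for this list. The 7 were Gpt, Tat, Tdo2, Bckdha, Bckdhb, Got1 and Hpd, which act in amino acid breakdown. The gluconeogenic genes were not called and differed in sign, with G6pc at 0.35 ± 0.10 (limma, adjusted p = 0.0797), Pck1 at -0.51 ± 0.23 and the coactivator gene Ppargc1a at -0.20 ± 0.11. Of the other genes not called, Prodh stood at -0.16 ± 0.11, Aldh4a1 at -0.38 ± 0.15 and Bcat2 at 0.13 ± 0.10.

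Klf3, a repressor that binds the CtBP corepressors, gave 10.49, 10.53 and 10.54 at 4 h, against 10.49, 10.79 and 10.81 in untreated cells. The untreated replicates were spread more widely (SD 0.18) than those at 4 h (SD 0.03), since replicate 1 was low before treatment and hardly moved. Its change of -0.18 ± 0.08 did not pass (limma, adjusted p = 0.283), apart from a fit with array weights (-0.23, limma adjusted p = 0.0457, in a range of 0.0457 to 0.996 over its alternatives).

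Klf13, known as a regulator of chemokine transcription in T cells, gave 9.27, 9.62 and 9.63 at 4 h, against 9.38, 9.29 and 9.37 in untreated cells. Replicates 2 and 3 were higher and replicate 1 was lower, so the groups overlapped. The change was 0.16 ± 0.08 (limma, adjusted p = 0.368).

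Klf5, a factor of proliferating epithelium such as the intestinal crypt, had the widest spread of the 10 genes in untreated cells (SD 0.46, n = 3). Its untreated signals were 7.86, 8.51 and 8.75, and those at 20 min were 8.72, 8.80 and 8.73. The difference at 20 min of 0.37 ± 0.14 rested mainly on replicate 1, which moved by 0.86, while replicates 2 and 3 moved by 0.28 and -0.02, and it did not pass (limma, adjusted p = 0.518). At 2 h the signals were 7.999, 8.86 and 8.53, and at 4 h they were 8.13, 8.58 and 8.64, with a change at 4 h of 0.07 ± 0.14.

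Klf2, which maintains quiescence of endothelium under blood flow, and Klf6 gave small differences from untreated cells. Klf2 lay between 7.15 and 7.41 on all 12 arrays, with changes of 0.06, -0.05 and -0.03 at 20 min, 2 h and 4 h, each with a standard error of 0.07. For Klf6 the 3 changes were 0.08, -0.05 and -0.07, with a standard error of 0.08, and replicate 1 read 11.75 at 2 h and 11.78 at 4 h, against 12.01 in its untreated array. Neither gene passed in limma (adjusted p from 0.728 to 0.991 over both genes and the 3 times).

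The remaining 7 KLF genes and 8 measured SP genes gave 1 call each at 4 h, both higher, beside 1.57% of all probe sets. Klf7, best known from developing neurons, had signals of 9.29, 10.12 and 10.01 at 4 h, against 9.11, 9.27 and 9.33 in untreated cells. Its change was 0.57 ± 0.12 (limma, adjusted p = 0.0218), with a small step in replicate 1 as in Klf4. Sp8, a factor of limb outgrowth, gave 6.16, 6.76 and 6.89 at 4 h, against 5.65, 6.12 and 6.30 in untreated cells. Its untreated signals lay below the array medians of 6.82 to 6.93, and it was not tested among the brighter probe sets. The replicates differed in level, so the groups overlapped, but the paired steps of 0.52, 0.64 and 0.59 were alike, and the change was 0.58 ± 0.09 (limma, adjusted p = 0.00508).

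Among the other family members, the repressor Klf12 stood at -0.36 ± 0.10 at 4 h and did not pass (limma, adjusted p = 0.0606). It was negative in 3 of 3 replicates, and by the widest step in replicate 1, where its untreated signal was 8.37, against 7.40 and 7.53 in replicates 2 and 3. Sp4 stood at -0.23 ± 0.11 and the ubiquitous factors Sp1 and Sp3 at -0.12 ± 0.08 and 0.02 ± 0.08. The erythroid Klf1 and the genes Klf8, Klf14, Klf16 and Klf17 had changes from -0.13 to 0.15, and Sp5, Sp6, Sp7 and Sp9 from -0.08 to 0.13. At 20 min and at 2 h limma called 0 of these 15 genes, and 0% of all probe sets. An unadjusted p under 0.05 was found for 3 of the 15 at 20 min (Klf12, Sp1 and Sp4) and 0 at 2 h. The shares of all probe sets were 8.46% and 6.28%. Sp8 was also called at 4 h against 20 min, by 0.45 ± 0.09 (limma, adjusted p = 0.048), a call lost under 17 of 25 alternatives. The 4 h calls of Klf7 and Sp8 went when replicate 2 (limma, adjusted p = 0.225 and 0.0843), replicate 3 (0.213 and 0.0825) or the replicate block (0.869 and 0.722) was left out, and with the block as a random effect (0.163 and 0.0746). That of Klf7 was also lost in a fit of the 2 groups alone (limma, adjusted p = 0.0849), with all probe sets tested (0.0822) and without the control or 4 h array of replicate 2 or 3.

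**Figure D4:**
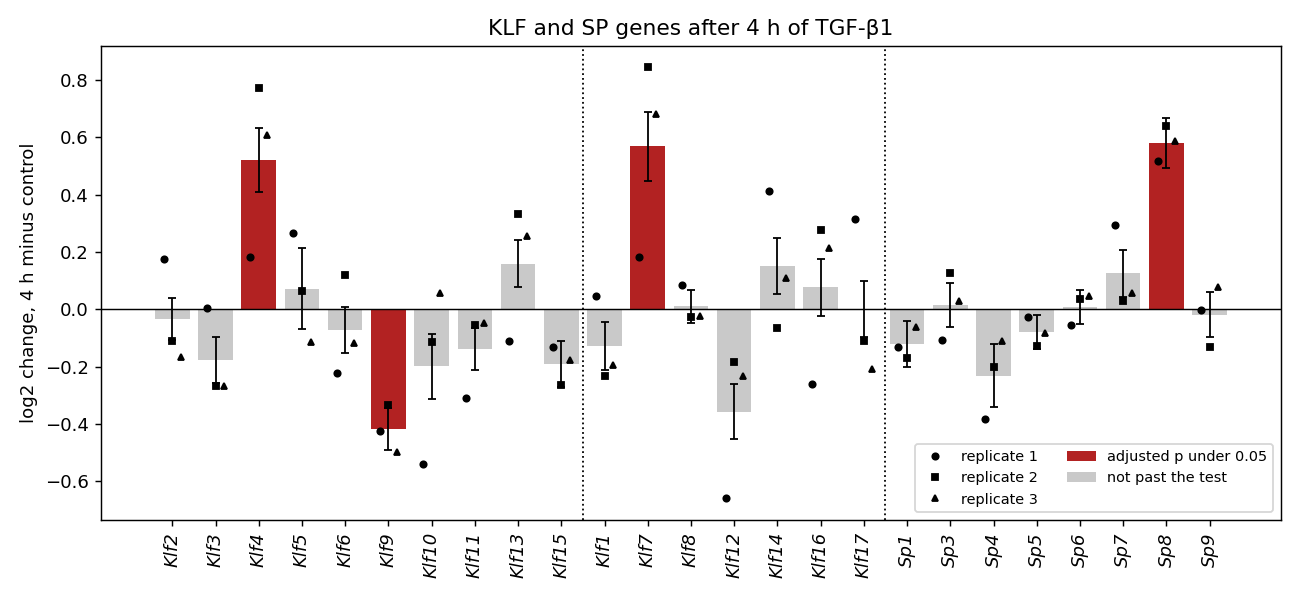
Log2 change at 4 h minus control (y axis) of the 10 KLF genes described here (left), 7 other KLF genes (middle) and 8 SP genes (right). Bar heights come from limma (error bars, standard errors; red where adjusted p is under 0.05) and the 3 symbol shapes give the paired difference of each replicate; Klf4, Klf7 and Sp8 stand at 0.52, 0.57 and 0.58, and Klf9 at -0.42.

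Genes that act with KLF proteins or upstream of them were read against the 4.59% of all probe sets called at 4 h and the 17% with an unadjusted p under 0.05. Of 17 measured corepressors and coactivators, limma called 0 at 4 h (5 at an unadjusted p under 0.05), with Sin3a at -0.06 ± 0.09 and Ctbp1 at 0.17 ± 0.08. Of 10 ubiquitin ligases that act on KLF proteins it also called 0 (2 at an unadjusted p under 0.05). Of 9 measured genes of the MEK5-ERK5-MEF2 axis, which drives Klf2 and Klf4 in endothelium, 2 rose and 0 fell (2 at an unadjusted p under 0.05). Hdac7, a deacetylase that binds MEF2 factors, rose by 0.50 ± 0.09, and Mef2d stood at 0.28 ± 0.07 (limma, adjusted p = 0.00979 and 0.0498). The 4 h and untreated values overlapped for Mef2d and did not for Hdac7.

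Of 15 measured genes comprising the glucocorticoid receptor and its targets beside Klf9 and Klf15, 1 rose and 1 fell at 4 h. Of all probe sets, 1.57% were called higher and 3.02% lower. At an unadjusted p under 0.05 there were 7 of the 15, beside 17% of all probe sets. The kinase gene Sgk1 rose by 0.64 ± 0.08 and Tat, which is also a member of the amino acid list, fell by 0.31 ± 0.08 (limma, adjusted p = 0.00218 and 0.0463). The targets Fkbp5, Tsc22d3 and Per1 stood at 0.22 ± 0.07, 0.30 ± 0.10 and -0.35 ± 0.09 and the receptor Nr3c1 at -0.12 ± 0.08, none past the test. Of 16 immediate early factors, 4 fell and 0 rose, and 7 had an unadjusted p under 0.05. Jun stood at -0.46 ± 0.07, Egr1 at -0.51 ± 0.08, Atf3 at -0.85 ± 0.14 and Myc at -0.29 ± 0.07 (limma, adjusted p = 0.00451, 0.00624, 0.00648 and 0.0348). The 4 h and untreated values overlapped for Atf3 (SD 0.97 and 0.56) and Myc, and did not for Jun and Egr1. Fits without the replicate block were not examined for these factors.

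By the course of their values over the 12 arrays, after removal of each replicate's mean, the genes most like Klf9 were Amdhd1 of histidine breakdown, Abhd3 and Dpyd of pyrimidine breakdown, with Pearson's r of 0.98, 0.97 and 0.97. They stood at -0.65, -0.42 and -0.57 at 4 h. The genes most like Klf4 were the sphingolipid transporter Spns2, the helix-loop-helix factor Atoh8 and Gm10658, with r of 0.96, 0.95 and 0.95 and changes of 0.47, 1.31 and 0.47. These are the highest of 1053 and 1052 probe sets that varied with an SD of at least 0.2, over arrays that share time points. Within the 10 KLF genes, r ranged from -0.72 for Klf3 with Klf13 to 0.78 for Klf4 with Klf13.

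Several facts of the arrays bear on these values. The 4 arrays of replicate 1 stood apart, with correlations of 0.978 to 0.988 to the others, against 0.994 to 0.997 among the arrays of replicates 2 and 3. The study's methods report a strong batch effect on the mouse HPC chips, and whether it is this difference was not tested. The 6 measured hepatocyte markers had mean log2 signals of 12.5 to 14.6 in untreated cells, and 0 of them passed at any time (1 at an unadjusted p under 0.05 at 4 h, 0 earlier). The lowest change at 4 h was -0.27, for Cps1 (mean log2 signal 13.40, against 13.67). The summed linear signal of all 6 was 99887 to 101493 at 4 h, against 104918 to 106333 in untreated cells. For the other cell types, the calls at 4 h stand beside 3.02% of all probe sets called lower and 1.57% higher. Of 10 Kupffer cell and macrophage markers, 4 fell at 4 h (Adgre1, Csf1r, C1qb and C1qc). The summed linear signal of all 10 was 4104 to 5005 at 4 h, against 5267 to 6191 in untreated cells, and came mostly from Cd68, which was not called (mean log2 signal 11.74 at 4 h, against 11.98). Of 10 liver endothelium markers, 2 fell (Lyve1 and Fcgr2b), with sums over all 10 of 2021 to 3076 at 4 h, against 2091 to 3409. Of 8 stellate cell and fibroblast markers, Dcn fell, with sums over all 8 of 1151 to 1811, against 1195 to 2281. The groups overlapped for Dcn (SD 1.16 at 4 h, 1.37 in untreated cells). Of 5 cholangiocyte markers, Cldn4 rose (1.05 ± 0.25, limma adjusted p = 0.0391). The sum over all 5 was 1907 to 2751 at 4 h, against 901 to 1849 in untreated cells, and came mostly from Sox9, which was not called (1.19 ± 0.34, limma adjusted p = 0.0751), while Krt19, Krt7 and Epcam stood at 0.03, 0.15 and 0.08. RMA signals have no true 0, so no marker is at 0. Some of these cells also express KLFs, fewer cells of a type and less RNA per cell cannot be told apart in such bulk samples, and the part of these shifts in the Klf4 and Klf9 changes was not tested.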

How the data were processed

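Total RNA of 12 primary mouse hepatocyte cultures was measured on Affymetrix Mouse Gene 1.0 ST arrays. Per the labels, the authors obtained the log2 values with Affymetrix Power Tools by RMA, that is background correction, quantile normalization and summarization per probe set; no version was found. For the study's own statistics the methods name FARMS and ComBat instead. ComBat was used to lessen a strong batch effect found on the mouse HPC chips, whose batches are not named. The labels mention no such adjustment of the values used here. The study's limma design also considers interaction of time with replicate, which the additive model used here leaves out. The methods do not list the 20 min group, which follows the labels, but the study's supplementary overview of experiments marks it for mouse hepatocytes. Array medians lay between 6.82 and 6.93, 0 values were missing and 0 array pairs were identical. The number of arrays limits the precision.

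Of 35556 probe sets, 21789 with exactly 1 symbol in the platform table, updated through RefSeq gene IDs, were tested. The others, 1621 with several symbols and 12146 not listed, were left out. Where several probe sets share a symbol, the brightest on average stands for the gene. With limma 3.58.1 in R 4.3.3, a model of time point plus replicate number (6 residual and 5.38 prior degrees of freedom) was fitted over all 12 arrays, and p was adjusted over all probe sets tested. The script was tested on simulated data. Arrays with the same replicate number deviated together from their group means (r from 0.555 to 0.881 over 18 pairs), against r from -0.813 to 0.722 over 36 pairs with different numbers. The ranges overlap. The numbers come from the labels.

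The members and the other gene lists were chosen with earlier results of these data known. All 10 members, all other KLF and SP genes and up to 4 called genes per further list are named by rule, with the 3 genes most like each called member. Gpt, Got1, G6pc, Pck1, Ppargc1a, Prodh, Aldh4a1, Bcat2, Id2, Smad7, Cps1, Cd68, Sox9, Krt19, Krt7, Epcam, Sin3a, Ctbp1, Fkbp5, Tsc22d3, Per1 and Nr3c1 were named after their values were seen. Genes of the lists with no probe set among those tested are not analysed here. Alternatives were another or no replicate block, other sets of probe sets, normalizations, priors and thresholds, array weights, and omission of single replicates or arrays. Sequences are from RefSeq (GRCm38.p6), where 8 of the 10 members matched.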

Additional observations from a re-analysis of the deposited data

How the results depend on the processing

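Over 26 alternatives, the 4 h change of Klf9 lay between -0.46 and -0.38 and, over 25, that of Klf4 between 0.39 and 0.69, and neither turned direction. Of 1554 values of the 10 genes in 6 comparisons under these alternatives, 1526 stayed on their side of the threshold, 15 lost a call and 13 gained one, and no called value turned direction. Most of the values that stayed were uncalled ones that remained uncalled. Of the 2 called as reported, Klf4 at 4 h lost its call under 10 of 25 alternatives and Klf9 under 5 of 26. At 4 h the count of called members, 2 as reported, was 0 with no replicate block, 1 with the block as a random effect, the compared groups alone, all probe sets, or the brighter probe sets only (mean at least the median, where Klf4 was not tested), and 0 at an adjusted p under 0.01 with at least a 2-fold change. With array weights it was 3, Klf3 being added. Leaving out 1 replicate or array gave 0 to 2. For 4 h against 20 min, 0 as reported, Klf4 made the count 1 with the dimmest probe sets removed, the trended and robust prior, array weights or the mean of a gene's probe sets, and 0 to 1 with 1 replicate or array left out. For 4 h against 2 h, 0 as reported, Klf4 and Klf9 made it 2 with the trended and robust prior and with array weights. Over the time course, 1 as reported, it was 0 with no replicate block, the random block, all probe sets, quantile normalization again or the stricter threshold, 2 with the dimmest probe sets removed, the trended and robust prior, array weights or the mean of a gene's probe sets, and 0 to 2 with 1 replicate or array left out. At 20 min, at 2 h and for 2 h against 20 min the count was 0 under each alternative. Pairing by replicate number was part of the reported fit, and the values with no replicate block are those above. The causes were not tested, beyond fewer probe sets or arrays where a setting removes them. With 3 arrays a group, the standard errors of 0.07 to 0.14 limit which changes can be seen.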
